A study of Oryza sativa with 4 samples.

Results

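YABBY genes encode plant transcription factors with a zinc finger and a DNA-binding YABBY domain that resembles an HMG box. They act in lateral organs such as leaves, glumes, lemmas, paleas and carpels. In Arabidopsis several of them are known for organ polarity, and in rice the family is best known from DROOPING LEAF (DL), which specifies the carpel and forms the midrib of the leaf. The 7 genes described here are YAB1 to YAB6 and DL, chosen by their locus IDs among the 55986 genes of a table of rice palea expression. The palea is the inner bract of the rice flower and closes it together with the lemma. All 7 have a row in the table, and all 7 passed a mean of at least 1 FPKM (fragments per kilobase of transcript, scaled by the authors to sequencing depth) over the 4 libraries, as did 20675 genes in all.

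The table covers paleas of 4 genotypes grown in a paddy field: the Tos17 retrotransposon insertion line Osmads6 (background Nipponbare), the T-DNA insertion line Osmads32 (background AF36), the deletion line rep1 (background japonica) and wild type (background japonica). The genes named by the mutant lines are MADS-box factors that pattern the flower (OsMADS6 and OsMADS32) and a TCP factor that shapes the palea (REP1). Genotype and background therefore cannot be told apart for Osmads6 and Osmads32, while rep1 and wild type share a label that names no cultivar, and no developmental stage is given in the sources used here. Each genotype is 1 sample with 2 columns, which were treated as 2 runs of that sample, so n = 1 per genotype and the genotypes were compared without a test. No source used here says if separate plants were used for the runs. The values in the text are those of run 1 and run 2 or their mean, and the gap between runs is the only spread available.

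Between 38958091 and 57961457 reads were recovered per run. OsMADS6 had 124 and 130 FPKM in the library labelled Osmads6 against 12.5 and 14.4 FPKM in that labelled wild type. Its level therefore does not bear out these labels. A gene-level FPKM does not show if the OsMADS6 transcript is intact, so it cannot settle them. The Osmads32 and rep1 libraries had means of 262 and 842 FPKM for this gene. OsMADS32 averaged 14.9 FPKM in the library labelled Osmads6, 8.32 FPKM in its own labelled mutant, 2.78 FPKM in that labelled rep1 and 7.19 FPKM in that labelled wild type, so its level does not bear out the Osmads32 label. REP1 had 2 and 0 reads in the library labelled rep1 and 4 and 11 reads in the library labelled wild type, too few to check that label. Libraries are therefore named by their labels, and every direction below rests on them. The comparison of rep1 with Osmads32 leaves out the libraries labelled wild type and Osmads6 but not this doubt, as no targeted gene checks the rep1 or Osmads32 label. The palea and lemma genes OsMADS1, OsMADS14 and OsMADS15 summed to 603 FPKM in the library labelled Osmads6, 525 in that labelled Osmads32, 355 in that labelled rep1 and 770 in that labelled wild type. The wild type runs were far apart, at 591 and 950 FPKM, and the Osmads6 runs, at 615 and 592 FPKM, lay between them. Markers of other flower parts were also present. Anther and tapetum markers (6 genes) summed to 12.3 FPKM in the library labelled Osmads6, against 192, 290 and 229 FPKM in those labelled Osmads32, rep1 and wild type. RTS, C6 and RAFTIN1 carried this difference, whereas TDR was higher in Osmads6 than in wild type, at 4.50 against 1.08 FPKM, and UDT1 was close, at 4.80 against 5.03 FPKM. EAT1 was lower in Osmads6, at 0.919 against 2.44 FPKM.

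The family was carried mainly by a single gene in each library, and this gene was YAB1 in 3 of the 4. YAB1, a gene linked in rice to feedback control of gibberellin synthesis, held 55.1% of the summed FPKM of the 7 genes in the library labelled Osmads6, 63.4% in that labelled Osmads32 and 64.3% in that labelled wild type. In the library labelled rep1 its share was 5.82%, and YAB2 held 64.6%. The summed level of the 7 genes was 131 and 137 FPKM in the rep1 runs, against 464 and 560 FPKM in the wild type runs. It was 409 and 445 FPKM in the Osmads6 runs and 542 and 594 FPKM in the Osmads32 runs. FPKM is a level per transcript length, so genes can be set side by side on it. As these are bulk samples, fewer cells with a transcript and less of it per cell cannot be told apart.

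**Figure D1:**
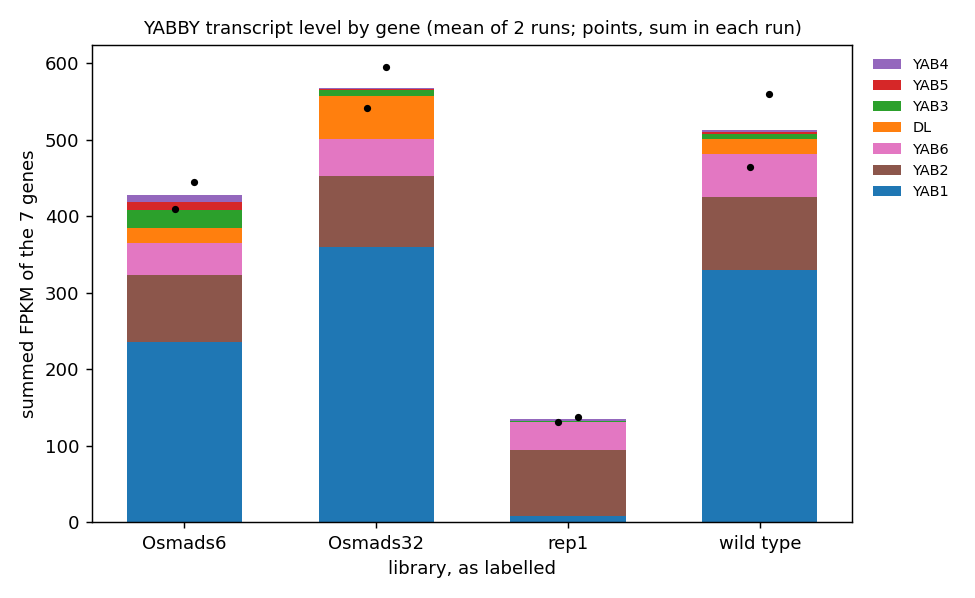
Summed FPKM of the 7 YABBY genes in each labelled library, stacked by gene. Bars are means of 2 runs and points are the sums in each run; the rep1 bar stands at 134 FPKM and the wild type bar at 512 FPKM, and YAB1 accounts for most of the gap.

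YAB1 (LOC_Os07g06620) had 222 and 249 FPKM in the library labelled Osmads6, 337 and 383 FPKM in that labelled Osmads32, 8.57 and 7.07 FPKM in that labelled rep1, and 290 and 369 FPKM in that labelled wild type. Only the rep1 runs were far from the rest. The rep1 level was 42.1-fold lower than in the library labelled wild type, 30.1-fold lower than in that labelled Osmads6 and 46.1-fold lower than in that labelled Osmads32. Of all genes measured, 49.3% lay below YAB1 in the library labelled rep1 and 99.1% in that labelled wild type. The Osmads32 and wild type runs overlapped. The Osmads6 runs lay below the runs of those libraries, 1.53-fold lower than Osmads32 and 1.40-fold lower than wild type on the means, within the 2-fold limit used to count differences.

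DL (LOC_Os03g11600) had 21.6 and 17.6 FPKM in the library labelled Osmads6, 53.7 and 57.4 FPKM in that labelled Osmads32, 0.617 and 0.381 FPKM in that labelled rep1, and 24.5 and 13.6 FPKM in that labelled wild type. The Osmads32 runs were the highest, the rep1 runs were the lowest, and the Osmads6 runs lay between the wild type runs. In the library labelled rep1 these values came from 24 and 14 reads. The rep1 mean was 38.2-fold lower than in the library labelled wild type, with a 95% counting interval of 28.0 to 54.6 (Clopper-Pearson, exact, from summed reads, covering counting error only). It was 111-fold lower than in the library labelled Osmads32, with an interval of 80.5 to 157. The Osmads32 mean was 2.92-fold higher than wild type. The wild type runs of DL differed 1.79-fold, a gap that 5.68% of all genes matched or exceeded between these runs. Against wild type run 1 alone the log2 ratio for Osmads32 was 1.15, and against run 2 alone it was 1.95. For Osmads6 it was -0.31 against run 1 and 0.49 against run 2, so this ratio had no settled sign.

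**Figure D2:**
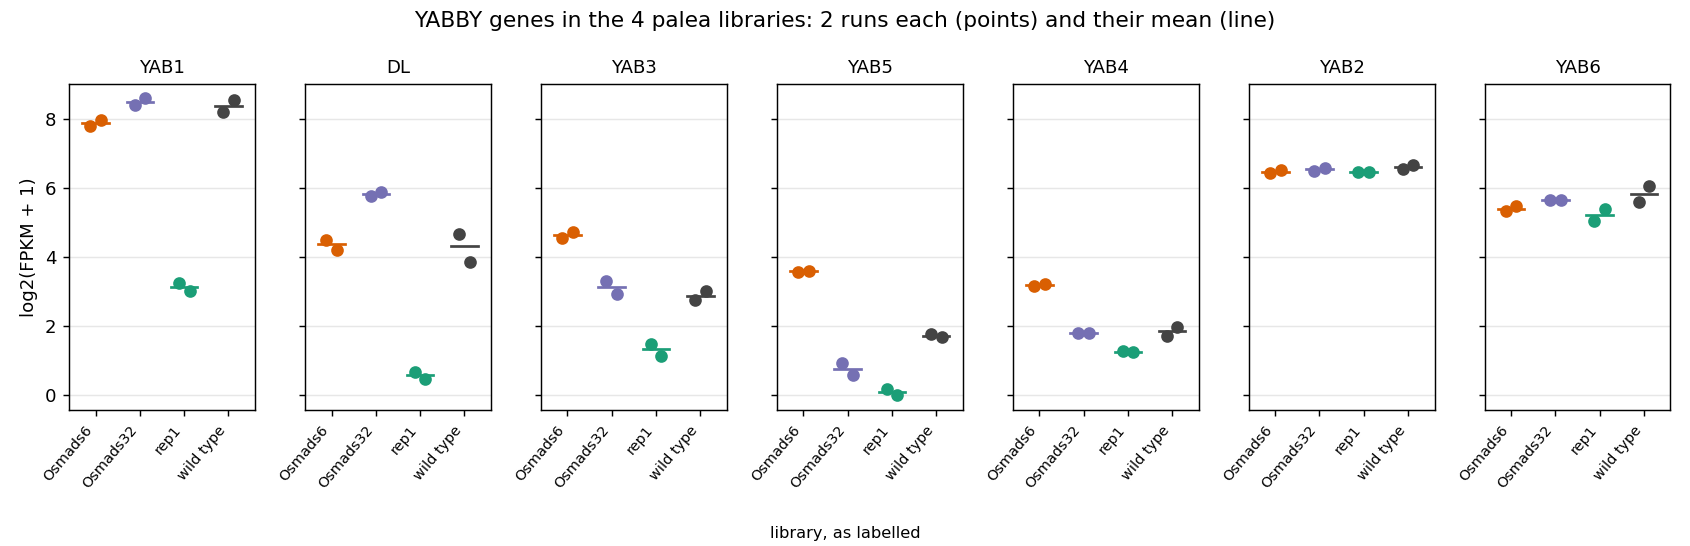
Expression of each YABBY gene, as log2(FPKM + 1), in the 2 runs (points) and their mean (line) of the 4 labelled libraries. YAB1 and DL stand far lower in the rep1 runs than in the other 6, YAB3, YAB4 and YAB5 are highest in the Osmads6 runs, and the means of YAB2 and YAB6 stay within 2-fold.

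A second pattern was shared by YAB3, YAB4 and YAB5, genes of lower level that were highest in the library labelled Osmads6. YAB3 (LOC_Os10g36420), which acts in rice leaf development, had 22.3 and 25.7 FPKM in the library labelled Osmads6, 8.97 and 6.71 FPKM in that labelled Osmads32, 1.83 and 1.22 FPKM in that labelled rep1, and 5.71 and 7.11 FPKM in that labelled wild type. Its runs were apart between all pairs of libraries except Osmads32 and wild type. The Osmads6 mean was 3.74-fold higher than wild type and 3.06-fold higher than Osmads32.

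YAB5 (LOC_Os04g45330), also called TONGARI-BOUSHI1, maintains the spikelet meristem and promotes the growth of its lateral organs. It had 11.0 FPKM in each Osmads6 run, 0.919 and 0.504 FPKM in the Osmads32 runs, 0.137 and 0 FPKM in the rep1 runs, and 2.41 and 2.23 FPKM in the wild type runs. The 4 libraries did not overlap, in the order Osmads6, wild type, Osmads32 and rep1. The rep1 values came from 7 and 0 reads, against 169 and 140 reads in the wild type runs. The rep1 mean was 33.9-fold lower than wild type, with a 95% counting interval of 15.9 to 83.0. The Osmads6 mean was 4.74-fold higher than wild type and 15.4-fold higher than Osmads32.

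YAB4 (LOC_Os02g42950), linked in rice to vascular development and gibberellin response, had 8.02 and 8.30 FPKM in the library labelled Osmads6, 2.47 FPKM in each Osmads32 run, 1.44 and 1.37 FPKM in the rep1 runs, and 2.30 and 2.91 FPKM in the wild type runs. The Osmads6 runs were the highest and the rep1 runs the lowest, while the Osmads32 runs fell between the wild type runs. The Osmads6 mean was 3.13-fold higher than wild type. The rep1 mean was 1.86-fold lower than wild type, inside the 2-fold limit.

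YAB2 was nearly level, and the means of YAB6 stayed within 2-fold. YAB2 (LOC_Os03g44710), the rice counterpart of the sorghum grain-shattering gene Shattering1, had 85.0 and 90.4 FPKM in the library labelled Osmads6, 88.8 and 94.7 FPKM in that labelled Osmads32, 86.8 and 86.7 FPKM in that labelled rep1, and 92.5 and 99.7 FPKM in that labelled wild type. Its means spanned 0.15 on the log2(FPKM + 1) scale, a smaller range than in all but 1.34% of the genes measured, for which the median range was 0.79. YAB6 (LOC_Os12g42610) had 39.1 and 43.5 FPKM in the library labelled Osmads6, 49.3 and 49.7 FPKM in that labelled Osmads32, 31.8 and 40.7 FPKM in that labelled rep1, and 47.1 and 65.2 FPKM in that labelled wild type. Its means spanned 0.62 on that scale, and 36.9% of genes had a smaller range. The rep1 and Osmads6 runs of YAB6 overlapped, as did the Osmads32 and wild type runs. By contrast, the range of YAB1 was 5.36 and that of DL 5.24, larger than in 99.7% and 99.6% of genes. A further family member, YAB7 (LOC_Os07g38410), had at most 30 reads in any run and is not described further.

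Counted against wild type at the 2-fold limit on the log2(FPKM + 1) scale, the 7 genes went different ways in the 3 mutants. For the library labelled Osmads6, 3 of 7 were higher (YAB3, YAB4 and YAB5) and 0 lower, where 7.7% of all genes were higher and 7.47% lower. The median log2 ratio of the 7 was 0.04, against -0.01 for all genes. For that labelled Osmads32, 1 of 7 was higher (DL) and 0 lower, where 1.81% of all genes were higher and 3.34% lower, and the medians were -0.05 for the 7 and -0.03 for all genes. YAB5 stood at a log2 ratio of -0.96 there, just inside the limit, and at -1.58 with a pseudocount of 0.1. For that labelled rep1, 0 of 7 were higher and 4 lower (YAB1, YAB3, YAB5 and DL), where 5.13% of all genes were higher and 8.78% lower. The medians were -1.56 for the 7 and -0.15 for all genes. After median-ratio scaling 1308 of all genes were higher and 1450 lower in that comparison, in place of 1060 and 1815, and the 7 genes were still called 0 higher and 4 lower. These 3 comparisons share the library labelled wild type.

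The mutants were then set against each other. With Osmads6 set against Osmads32, 3 of 7 were higher (YAB3, YAB4 and YAB5) and 1 lower (DL), where 7.61% of all genes were higher and 5.98% lower. DL was 2.83-fold lower there. With the library labelled rep1 against that labelled Osmads6, 0 were higher and 5 lower, where 10.7% of all genes were higher and 16.6% lower. YAB2 and YAB6 were the pair not counted. For rep1 against Osmads32, 0 were higher and 3 lower (YAB1, YAB3 and DL), where 6.47% of all genes were higher and 9.62% lower. YAB3 was 5.16-fold lower in that comparison, which does not use the libraries labelled wild type and Osmads6. YAB5 had 7 reads there against 80 in the Osmads32 runs, and its log2 ratio was -0.68 with a pseudocount of 1 and -2.27 with one of 0.1.

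**Figure D3:**
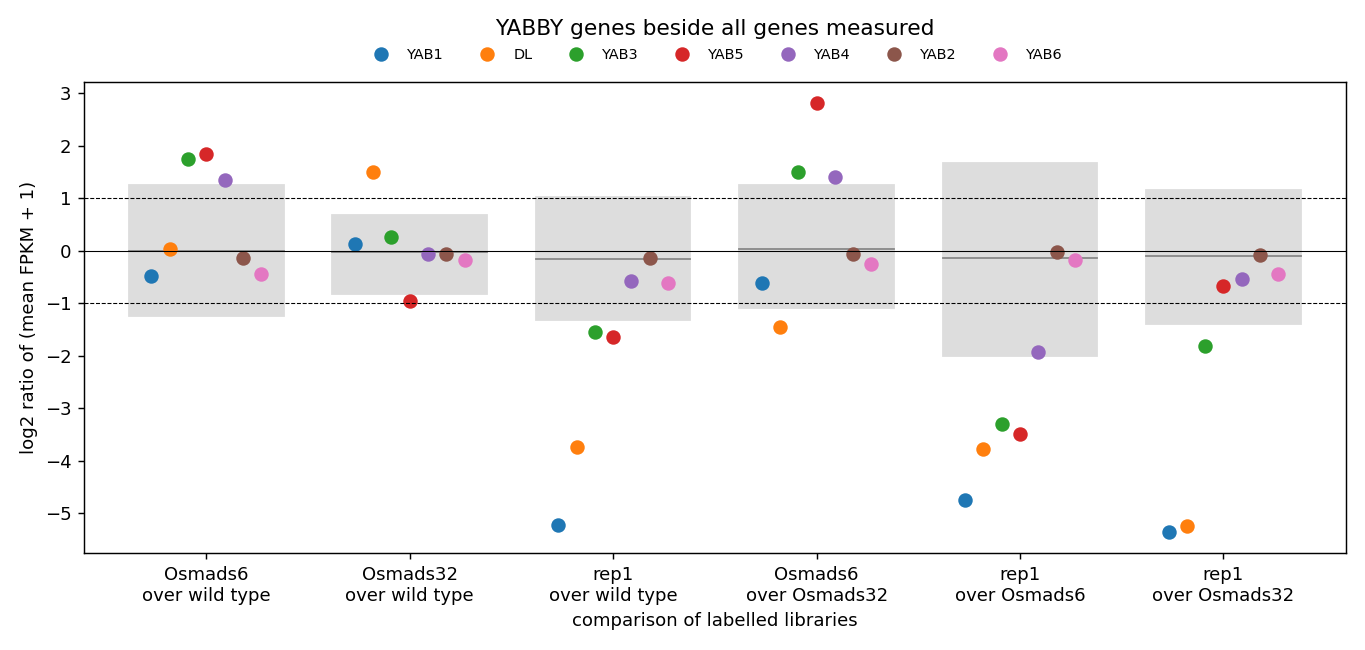
Log2 ratio of (mean FPKM + 1) for each YABBY gene in 6 comparisons of labelled libraries. Grey boxes hold the 5th to 95th percentile of 20675 genes, grey lines are their medians and dashed lines mark 2-fold; YAB1, DL and YAB3 lie below the box in every comparison that has rep1 on top, and YAB3, YAB4 and YAB5 lie above it for Osmads6 over wild type and over Osmads32.

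The mean of each of the 7 genes was lowest in the library labelled rep1, the lowest library for 41.1% of all genes. The YAB2 runs of that library overlapped the Osmads6 runs, as those of YAB6 did. After median-ratio scaling 6 of the 7 were lowest in the library labelled rep1 and YAB2 was lowest in that labelled Osmads6, while the share of all genes lowest in the library labelled rep1 was 33.0%. Patterns were compared by the root mean square difference of log2(FPKM + 1) over the 8 runs, each gene centred on its own mean. The closest members were YAB2 and YAB6 (0.22), YAB3 and YAB5 (0.54), YAB3 and YAB4 (0.56), YAB4 and YAB5 (0.66) and YAB1 and DL (0.70), and the farthest were YAB1 and YAB2 (2.19). Among the genes that averaged 5 FPKM or more, the nearest to YAB1 was LOC_Os07g15370 (0.23), with 28.5, 39.7, 0.405 and 40.8 FPKM in the libraries labelled Osmads6, Osmads32, rep1 and wild type. The nearest to DL was LOC_Os02g30910 (0.34), with 39.8, 69.3, 1.06 and 27.8 FPKM in the same order. The libraries give 4 levels to compare, so such likeness is a description only.

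The 7 genes lie on 6 chromosomes, and the loci beside those that differed most were counted in the same way. Among the 10 loci on each side of YAB1 by locus number, 12 passed 1 FPKM, and 1 was at least 2-fold higher and 0 lower for rep1 against wild type. Beside DL, 13 loci passed, and 1 was higher and 1 lower in that comparison. Beside YAB3, 10 passed, with 1 higher and 1 lower, and beside YAB5, 8 passed, with 0 higher and 1 lower. Of all genes measured, 5.13% were higher and 8.78% lower in that comparison. With so few loci, counts of 0 or 1 cannot be told from these shares. For Osmads6 against wild type, 1 of 10 loci beside YAB3 was higher, 0 of 8 beside YAB5 and 1 of 13 beside YAB4. The share of all genes higher there was 7.7%.

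DL is the neighbour of OsMADS1 (LOC_Os03g11614), a SEPALLATA-like gene that gives the lemma and palea their identity, with no gene between them in RefSeq's annotation of the assembly ASM3414082v1. OsMADS1 had 454 and 436 FPKM in the library labelled Osmads6, 373 and 414 FPKM in that labelled Osmads32, 249 and 337 FPKM in that labelled rep1, and 440 and 830 FPKM in that labelled wild type. It was 2.17-fold lower in rep1 than in wild type and 1.34-fold lower than in Osmads32, while DL was 38.2-fold and 111-fold lower in the same comparisons. For Osmads32 against wild type OsMADS1 stood 1.62-fold lower and DL 2.92-fold higher. Wild type run 2 widens this contrast. OsMADS1 had 830 FPKM there against 440 FPKM in run 1, and DL had 13.6 FPKM against 24.5 FPKM.

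DL is known for carpel identity, and markers of carpels and ovules were therefore set beside it. The 3 markers OsMADS13 (ovule identity), OsMADS21 and OsMADS58 (carpel) summed to 0.493 and 0.213 FPKM in the Osmads6 runs, 25.4 and 28.1 FPKM in the Osmads32 runs, 11.9 and 13.1 FPKM in the rep1 runs, and 0.964 and 1.02 FPKM in the wild type runs. OsMADS13 had 17.4 and 19.6 FPKM in the Osmads32 runs and 10.2 and 11.5 FPKM in the rep1 runs, against 0.423 and 0.691 FPKM in the wild type runs. OsMADS58 had 6.0 and 6.11 FPKM in the Osmads32 runs and 1.73 and 1.13 FPKM in the rep1 runs, against 0.421 and 0.268 FPKM in the wild type runs. No marker of the 3 was at 0 in both runs of a library. OsMADS21 had 2.04 and 2.41 FPKM in the Osmads32 runs and 0 and 0.499 FPKM in the rep1 runs, against 0.119 and 0.0592 FPKM in the wild type runs. All 3 markers were high together with DL in the library labelled Osmads32. In the library labelled rep1, where DL was lowest, OsMADS13 and OsMADS58 lay above wild type and the OsMADS21 runs overlapped it. Their part in the level of DL was not tested.

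**Figure D4:**
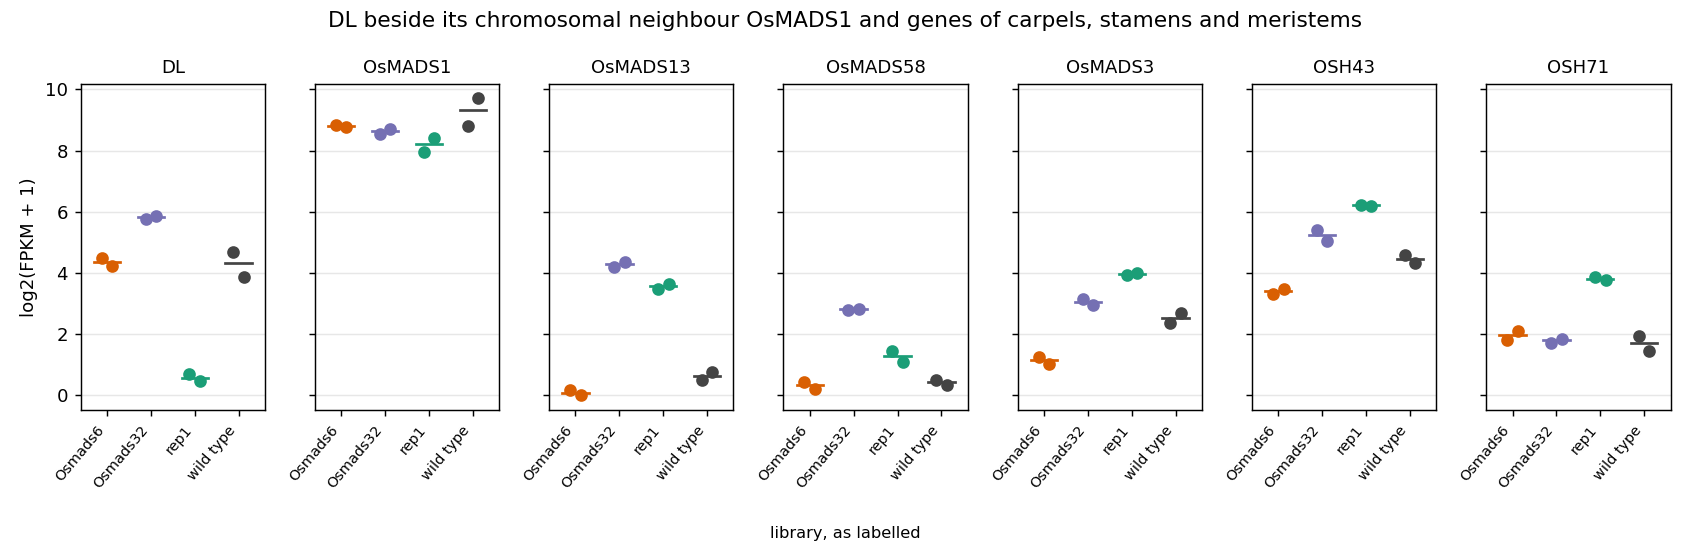
Log2(FPKM + 1) of DL, its neighbour OsMADS1, carpel and stamen genes (OsMADS13, OsMADS58 and OsMADS3) and the KNOX genes OSH43 and OSH71 in the 2 runs (points) and their mean (line) of each labelled library. In the rep1 runs DL is at its lowest while OsMADS3, OSH43 and OSH71 are at their highest. In the Osmads32 runs, where DL is at its highest, OsMADS3 and OSH43 also lie above the wild type runs, and OSH71 overlaps them.

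Of 10 MADS-box genes of floral organ identity and ovules, counted with no filter on low values, 1 was higher and 1 lower for Osmads6 against wild type (7.7% and 7.47% of all genes measured). For Osmads32 against wild type 4 were higher and 0 lower (1.81% and 3.34%), 3 of the 4 being the carpel and ovule markers above. For rep1 against wild type 5 were higher and 1, OsMADS1, lower (5.13% and 8.78%). The OsMADS1 call rests on wild type run 2, at 830 FPKM. Neither rep1 run, at 249 and 337 FPKM, was 2-fold below wild type run 1, at 440 FPKM. The median log2 ratios of the 10 were -0.42, 0.82 and 1.11 in that order, beside -0.01, -0.03 and -0.15 for all genes. OsMADS6 is among the higher genes in each. OsMADS3, a stamen and carpel identity gene, had 14.4 and 15.1 FPKM in the rep1 runs against 4.15 and 5.49 FPKM in the wild type runs. In the library labelled Osmads6 it was at 1.40 and 1.03 FPKM, below those wild type values, and in that labelled Osmads32 at 7.81 and 6.79 FPKM, above them. The stamen and lodicule markers (4 genes) summed to 198 and 173 FPKM in the rep1 runs against 98.7 and 75.5 FPKM in the wild type runs. They summed to 145 and 138 FPKM in the Osmads32 runs, where DL was highest. Their part in the YABBY values was not tested.

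Class I KNOX genes, which keep meristem cells undetermined, were measured as the other side of lateral organ growth. Of 5 genes, counted with no filter on low values, 3 were higher and 0 lower for rep1 against wild type (5.13% and 8.78% of all genes measured): OSH1, OSH43 and OSH71. OSH43 had 73.7 and 72.5 FPKM in the rep1 runs against 22.9 and 19.2 FPKM in the wild type runs, and OSH71 had 13.5 and 12.8 FPKM against 2.85 and 1.75 FPKM. In the library labelled Osmads6 OSH43 was lower, at 9.02 and 10.2 FPKM. In that labelled Osmads32 it had 40.9 and 32.0 FPKM, above the wild type runs. None of the 5 was past 2-fold on the log2(FPKM + 1) scale for Osmads32 against wild type. Of all genes measured, 1.81% were higher and 3.34% lower there. OSH1 stood inside the limit, at a log2 ratio of 0.86, as its wild type mean of 0.305 FPKM lies below the pseudocount of 1. With no pseudocount its Osmads32 mean of 1.37 FPKM was 4.51-fold higher than wild type. These means came from 299 reads in Osmads32 and 80 in wild type, and the runs were apart.

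Of 5 organ polarity genes whose symbols matched RefSeq, 0 were higher and 2 lower for rep1 against wild type, where 5.13% and 8.78% of all genes measured were. With 2 further genes whose symbols had no match, 0 of 7 were higher and 3 lower, the added one being OSHB3 by its unchecked pairing, at 2.99 FPKM in rep1 against 12.1 FPKM in wild type. OSHB2, an HD-ZIP III gene of the upper organ side, had 17.9 and 18.3 FPKM in the rep1 runs against 109 and 98.0 FPKM in the wild type runs. SLL1, a KANADI gene of the lower side, had 0.329 and 0.174 FPKM in the rep1 runs against 2.59 and 2.38 FPKM in the wild type runs. For Osmads32 against wild type OSHB2 was also lower, at 48.3 and 51.3 FPKM (1.81% of all genes measured were higher and 3.34% lower). For Osmads6 against wild type no member was called (7.7% and 7.47%). For rep1 against Osmads6, 1 of the 5 was higher and 3 were lower (10.7% and 16.6% of all genes measured), OSHB1 among them at 14.5 and 15.0 FPKM against 40.3 and 38.9 FPKM. Gibberellin genes were set beside YAB1 and YAB4 because of their known tie to this hormone. Of 3 with matched symbols, 0 were past 2-fold on the log2(FPKM + 1) scale in each comparison of a mutant with wild type. GA20ox2 stood just inside the limit for Osmads6, at a log2 ratio of 0.99. It had 2.34 and 2.70 FPKM there against 0.942 and 0.608 FPKM in the wild type runs, 3.25-fold higher on the means. Of all genes measured, 7.7% were higher and 7.47% lower for Osmads6, 1.81% and 3.34% for Osmads32, and 5.13% and 8.78% for rep1. At such shares, a count of 0 among 3 genes does not set them apart. Of 3 more whose pairing did not pass the check, 1 was past 2-fold: the gene paired as GA20ox1, a gibberellin 20-oxidase. It stood at 12.8 FPKM in Osmads32 and 2.66 FPKM in rep1, against 28.2 FPKM in wild type. The gene paired as GA3ox2 was not counted, as its wild type mean of 0.441 FPKM lies below the pseudocount of 1. With no pseudocount it was 2.36-fold higher than wild type in Osmads6, 2.99-fold in Osmads32 and 2.30-fold in rep1. For the 3 with matched symbols, median log2 ratios were 0.25 for Osmads6, -0.17 for Osmads32 and -0.48 for rep1.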

How the data were processed

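Bulk RNA sequencing of paleas was deposited as FPKM values made by the authors, 8 columns for 4 samples. The genome build is IRGSP 1.0, per the submitters' processing notes; no aligner, counter or annotation version was named there (not given in the sources used). The 2 columns of a genotype were averaged (n = 1). The ratio was log2((FPKM + 1)/(FPKM + 1)); folds of single genes divide mean FPKM values with no pseudocount added. No test was made, and "higher" and "lower" in counts mean at least 2-fold. Whole reads were recovered from the FPKM steps within 0.02 reads for 44706 genes, up to a factor common to a gene's 8 runs; 7 abundant genes gave none and held 3.48% to 5.13% of a run's FPKM. The procedure was tested on simulated data. YABBY genes are paralogs, and how reads common to several of them were assigned is unknown.

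Symbols were paired with locus IDs from rice nomenclature and checked for chromosome and order against RefSeq (assembly ASM3414082v1): 39 of 46 pairs passed, all 7 members among them. Lists use passing pairs except where said; OsMADS32 and REP1 did not pass and were kept as targeted genes. RefSeq also lists older, crossing YABBY names (OsYAB3 for YAB5, OsYAB4 for YAB3), so locus IDs are given. Members and lists were chosen with earlier results of these data known. Genes named were all members, targeted genes, OsMADS1, marker genes, list members past 2-fold with a mean of at least 5 FPKM, and the nearest patterns; SLL1 and OSH1 were named after their values were seen. Analyses used Python 3.11.15, pandas 2.3.3, numpy 2.4.6 and SciPy 1.17.1.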

Additional observations from a re-analysis of the deposited data

How the results depend on the processing

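Counts of YABBY genes past 2-fold were recomputed with a pseudocount of 0.1, without a filter on low values, with a mean of at least 5 FPKM (5 of 7 genes), after median-ratio scaling, and with each run left out. With a mean of at least 5 FPKM, where fewer genes are counted, 1 was higher in place of 3 for Osmads6 against wild type and against Osmads32, 3 were lower in place of 5 for rep1 against Osmads6, and 3 in place of 4 for rep1 against wild type. For Osmads32 against wild type, 1 was lower in place of 0 with a pseudocount of 0.1 and without Osmads32 run 1 (YAB5, log2 ratio -1.58 and -1.14). For rep1 against Osmads32, 4 were lower in place of 3 with a pseudocount of 0.1 (YAB5). Leaving out runs gave 0 to 1 lower for Osmads32 against wild type. Of 252 single-gene ratios under these settings, 3 crossed the 2-fold limit, all for YAB5, and 0 of those called changed sign. Scaling moved the median of all genes by 0.13 for rep1 against wild type, 0.15 against Osmads6 and 0.10 against Osmads32. No paired analysis was possible because each genotype has 1 sample. Depth limits DL and YAB5 in the library labelled rep1 (38 and 7 reads).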
